A study of Mus musculus with 24 samples.

Results

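Chromatin accessibility at the genes of the E-protein and Id family of transcription factors was compared between 4 genotypes of mouse germinal centre (GC) B cells. The family has 6 members here: the E-protein genes Tcf3, Tcf4 and Tcf12 and the Id genes Id1, Id2 and Id3. A peak was assigned to a member when it overlapped the GENCODE body of that gene extended by 50 kb on each side, which took 108 of the 65483 consensus peaks: 17 at Tcf3, 35 at Tcf4, 23 at Tcf12, 8 at Id1, 8 at Id2 and 17 at Id3. The family was chosen partly by a readout of these data, a peak at a Tcf4 transcription start site (TSS) that was higher in 2 of the mutant genotypes. Values of Tcf4 in those genotypes are therefore given as a description, and nothing is read from its calls where they enter a count.

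E proteins are basic helix-loop-helix (bHLH) factors that bind the E-box, CANNTG, as dimers. TCF3 (which encodes E2A, as E12 and E47), TCF4 (E2-2) and TCF12 (HEB) share this binding mode and are needed at several stages of B cell development, including the GC reaction. Id proteins have the helix-loop-helix dimerization surface but lack the basic DNA-binding region, so a dimer of an Id protein and an E protein cannot bind the E-box.

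WT mice carried Cg1Cre+/- alone. C mice carried Cg1Cre+/- with Crebbp fl/+, K mice Cg1Cre+/- with Kmt2d fl/+, and CK mice Cg1Cre+/- with both Crebbp fl/+ and Kmt2d fl/+. The Cre allele was thus present in every group. It is driven from the immunoglobulin gamma-1 constant region locus and acts in B cells that have been activated into the GC reaction, so each floxed gene loses 1 of its 2 copies there and the other remains. The C57BL/6J mice, 8 weeks old per the study, were immunized with sheep red blood cells (SRBC), and GC B cells were sorted from the spleen after 10 days. Each library came from 1 mouse and 60000 cells and was made by ATAC-seq, where transposase inserts adapters into accessible DNA. There were 4 WT, 4 C, 4 K and 5 CK libraries. Sorted centroblasts and centrocytes of WT mice (7 samples) were not analysed here.

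Libraries held between 17483706 and 21857738 fragments in peaks. Levels are given as CPM, the fragments of a peak scaled to the TMM-adjusted total of its library, with the SD over mice. Log2 fold changes are given with their SE. The lowest count of any of the 108 peaks in a library was 2 fragments, and 94 of the 108 peaks had at least 10 fragments in every library. Of the promoter peaks of marker genes, those of the GC B list (7 of 7 genes) and the pan-B list (5 of 5) were present. A promoter peak was also present at 2 of 3 plasma cell genes (Prdm1 at 89.9 and Sdc1 at 35.3 CPM, means over all libraries), 1 of 5 T cell genes (Lck at 28.1 CPM) and 3 of 5 myeloid genes (Cebpa at 13.7, Adgre1 at 1.86 and Csf1r at 1.47 CPM). It was absent at Cd3e, Cd3g, Cd4, Cd8a, Lyz2, Itgam and both natural killer cell genes. The myeloid promoters summed to 14.7 to 17.1 CPM for WT, 14.8 to 18.6 for C, 15.2 to 19.2 for K and 17.3 to 18.6 for CK, so that CK lay above WT without overlap, and the part of this in the results was not tested. The plasma cell and T cell sums of CK overlapped those of WT. Within the plasma cell list Prdm1 overlapped, whereas Sdc1 was higher than WT in every mutant genotype without overlap. Sdc1 had 29.2 to 32.8 CPM in WT, 33.6 to 37.6 in C, 34.2 to 39.1 in K and 34.1 to 41.4 in CK. The part of Sdc1-positive cells in the results was not tested. The summed promoter level of 4 naive or follicular B cell genes was 83.0 to 100.2 CPM for WT mice, 77.0 to 88.4 for C mice, 65.6 to 80.6 for K mice and 62.3 to 77.4 for CK mice, and that of the GC B list was 438 to 491 for WT mice, 405 to 451 for C mice, 436 to 454 for K mice and 387 to 449 for CK mice. The naive list thus moved with the K and CK genotypes without overlap with WT, and its part in the results below was not tested. Fragments over the male-specific region of chromosome Y were present in 9 of the 17 libraries (2 WT, 2 C, 3 K and 2 CK), although the study describes the mice as female. Each member peak or locus outside Tcf4 that was called against WT is therefore also given within these sets of libraries. For CK vs C only the numbers of called peaks are given within them, and pathway genes are not given within them. The peak at the start of Crebbp measured 40.4 ± 1.79 CPM over the 4 WT mice and 45.2 ± 1.45 over the 5 CK mice, and the peak at the start of Kmt2d 41.9 ± 2.34 and 44.2 ± 1.69, so these peaks do not check the deletions. In a bulk sample, a change in the share of cells with an open site cannot be told apart from a change of the site in each cell, and accessibility is not a measure of transcript level.

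Because the family is defined by how it meets DNA, the central 300 bases of 5 of the peaks on which the results turn are shown, on the plus strand of mm10 (GRCm38), read 5′ to 3′. Capitals mark matches to the searched letters. The searched motifs were the E-box CANNTG on both strands, which includes its versions CAGCTG and CAGGTG, and 2 motifs of other factors active in GC B cells, the PU.1-like GAGGAAGT and the STAT-like TTCNNNGAA, both on both strands. The windows are centred on the middle of each peak, since no summit position was used.
Id1 -12.2 kb (chr2:152723930-152724229): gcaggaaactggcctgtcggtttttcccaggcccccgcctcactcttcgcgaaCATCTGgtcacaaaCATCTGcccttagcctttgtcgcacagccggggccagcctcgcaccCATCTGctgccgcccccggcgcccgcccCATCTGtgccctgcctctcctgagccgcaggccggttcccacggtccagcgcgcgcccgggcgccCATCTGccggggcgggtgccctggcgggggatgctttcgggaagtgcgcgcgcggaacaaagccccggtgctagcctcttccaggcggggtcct
Id1 +20.4 kb (chr2:152756499-152756798): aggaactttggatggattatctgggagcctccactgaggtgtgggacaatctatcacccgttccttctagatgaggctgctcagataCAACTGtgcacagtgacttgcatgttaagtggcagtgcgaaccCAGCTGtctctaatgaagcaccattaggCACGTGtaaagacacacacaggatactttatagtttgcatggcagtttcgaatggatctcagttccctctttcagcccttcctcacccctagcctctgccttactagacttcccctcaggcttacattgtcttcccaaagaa
Id2 +50.3 kb (chr12:25046715-25047014): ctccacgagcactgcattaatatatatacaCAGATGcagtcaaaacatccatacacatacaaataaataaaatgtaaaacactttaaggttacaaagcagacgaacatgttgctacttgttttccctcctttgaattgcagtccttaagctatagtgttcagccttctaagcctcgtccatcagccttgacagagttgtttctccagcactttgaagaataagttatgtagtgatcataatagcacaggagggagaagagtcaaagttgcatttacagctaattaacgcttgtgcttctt
Id2 +42.3 kb (chr12:25054661-25054960): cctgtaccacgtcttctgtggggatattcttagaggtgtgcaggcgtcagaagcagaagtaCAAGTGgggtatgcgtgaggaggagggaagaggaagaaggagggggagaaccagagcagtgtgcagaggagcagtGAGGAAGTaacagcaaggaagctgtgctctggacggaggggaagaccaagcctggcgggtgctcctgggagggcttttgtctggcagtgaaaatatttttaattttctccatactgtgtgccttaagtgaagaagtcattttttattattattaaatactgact
Id3 -33.2 kb (chr4:136110133-136110432): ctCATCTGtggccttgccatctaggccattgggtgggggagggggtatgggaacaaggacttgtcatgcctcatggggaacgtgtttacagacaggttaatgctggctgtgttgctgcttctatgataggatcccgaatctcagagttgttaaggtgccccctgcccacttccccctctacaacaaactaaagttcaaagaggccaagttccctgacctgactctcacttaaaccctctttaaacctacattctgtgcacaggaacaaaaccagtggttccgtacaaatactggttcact
The first 2 windows come from peaks that were more open in CK, and the last 3 from peaks that were less open. The Id1 -12.2 kb window held 5 E-boxes, each of them CATCTG on the plus strand, and 70.3% of its bases were G or C. The Id1 +20.4 kb window held 3 E-boxes, of which 1 was CAGCTG. Each of the 3 windows shown from less open peaks held 1 E-box, and that of the remaining called lower peak, Tcf12 +215.6 kb, which is not shown, held 0. Of the 5 windows, the Id2 +42.3 kb window held the only PU.1-like match. An E-box of any kind was present in 78.7% of the central windows of all 65483 peaks and in 81.5% of the 108 members' windows, with a median of 1 match per window over all peaks. CAGCTG was found in 17.2% of all windows and 15.7% of the members', CAGGTG in 24.1% and 25.9%, the PU.1-like motif in 5.84% and 5.56%, and the STAT-like motif in 8.22% and 3.70%. A match describes the letters in the window and does not show binding.

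All 6 genes had an open gene start in GC B cells, at levels that fell into a high and a low set. Per kb of peak, the peak at the start of Id3 had 54.8 ± 2.32 CPM per kb in WT (SD, n = 4), followed by Tcf3 with 49.5 ± 1.58 and Id2 with 43.4 ± 2.09. The peaks at the starts of Tcf12 (15.7 ± 1.35), Tcf4 (15.2 ± 0.17) and Id1 (13.8 ± 1.10) were lower. Tcf12 and Tcf4 differed by less than the SD of Tcf12 and are not ordered by these values. Over the whole windows, summed peaks gave 23.6 ± 0.87 CPM per kb of peak at Id3, 20.96 ± 0.44 at Id2, 20.5 ± 0.37 at Tcf3, 10.3 ± 0.33 at Id1, 9.13 ± 0.23 at Tcf4 and 8.98 ± 0.28 at Tcf12 (WT, SD, n = 4). Id2 and Tcf3 were within about their SDs of each other, as were Tcf4 and Tcf12.

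The windows differ in how far they belong to the member. All 35 peaks at Tcf4 and all 23 at Tcf12 had a TSS of that gene as the nearest coding TSS. This held for 6 of 8 peaks at Id2, 10 of 17 at Id3, 7 of 17 at Tcf3 and 3 of 8 at Id1, and for 84 of the 108 peaks in all. The most open peak in the Tcf3 window was the promoter of Mbd3, and that in the Id3 window the promoter of E2f2.

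With edgeR's quasi-likelihood test, adjusted over all 65483 peaks by the Benjamini-Hochberg method, a peak was called at an adjusted p under 0.01. In C vs WT, 0 of the 108 peaks were called, against 0.16% of all peaks. At an unadjusted p under 0.05 there were 9 of 108 (8.33%, against 8.90% of all peaks), and DESeq2 called 0 (background 0.275%). In K vs WT, 5 of 108 were called, all higher and all at Tcf4, against 1.48% of all peaks (0.647% higher and 0.828% lower). Outside Tcf4, edgeR called 0 of 73 in K, with 14 at an unadjusted p under 0.05 (19.2%, against 20.6% of all peaks). DESeq2 called 2 of these 73, against 3.29% of all peaks it tested. In CK vs WT, 14 of 108 were called, against 6.84% of all peaks. The 10 higher ones (background 3.54%) were 7 at Tcf4 and 3 at Id1, and the 4 lower ones (background 3.3%) were 2 at Id2, 1 at Id3 and 1 at Tcf12. Tcf4 entered the family for its change in K and CK, so nothing is read from its share. The 7 of 73 peaks called in CK outside Tcf4 are 9.59%, against the background of 6.84%, and the median log2 fold change over the 73 was 0.02, beside 0.0029 over all peaks. The number called in CK vs WT was 9 of 108 with chromosome Y share as a covariate, against 2.74% of all peaks. That share did not follow the male-specific Y signal, being highest (0.101%) in C replicate 4, which lacked the signal. With the male-specific signal itself as a covariate, 17 of 108 were called, against 8.46%. Within the mice with that signal there were 5 of 108, all higher, against 0.747%. These counts include Tcf4, from which nothing is read. Of the 7 peaks called outside Tcf4, only Id1 +20.4 kb kept an adjusted p under 0.01 within those mice.

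Direct comparisons of the mutants gave calls outside Tcf4 in CK vs C only. In CK vs K, 0 of 108 peaks were called by edgeR and by DESeq2, against 0.00916% and 0.0818% of all peaks. There were 8 at an unadjusted p under 0.05 (7.41%, against 7.35% of all peaks). In CK vs C, 10 of 108 were called, against 1.68% of all peaks. The 8 higher ones (background 0.907%) were 7 at Tcf4 and 1 at Tcf12, and the 2 lower ones (background 0.77%) were both at Id2. Outside Tcf4, 3 of 73 peaks were called in CK vs C (4.11%, against the same 1.68%). Without C replicate 4 the number called in CK vs C was 3, against 0.382% of all peaks. A test of CK against both single changes added together called 0 of 108 peaks, against 7 of all 65483. It had 1 of the 108 at an unadjusted p under 0.05 (0.926%, against 3.73% of all peaks).

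Summing the peaks of each window gave 1 value per mouse, tested in the same way beside 18045 loci of protein-coding genes. In C vs WT, 0 of 6 loci were called by edgeR (background 0.454%) and by DESeq2 (background 0.687%). Id1 alone had an unadjusted p under 0.05, against 9.99% of all loci. In K vs WT (background 2.65%) and in CK vs WT (background 11.7%, of which 7.91% higher and 3.83% lower), the Id1 locus was called higher. The Tcf4 locus, the other one past the threshold in both, was chosen for its change in these genotypes, and nothing is read from it. After each library was centred within GC bins of the peaks, 5 loci were called in CK vs WT, 2 higher and 3 lower, against 18.7% of all loci. The added ones were Tcf3 (log2 fold change -0.12, adjusted p = 0.00109), Id2 (-0.19, adjusted p = 0.00173) and Id3 (-0.12, adjusted p = 0.00607). With loess offsets there were 3, 2 higher and 1 lower (Id2), against 12.1%.

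**Figure D1:**
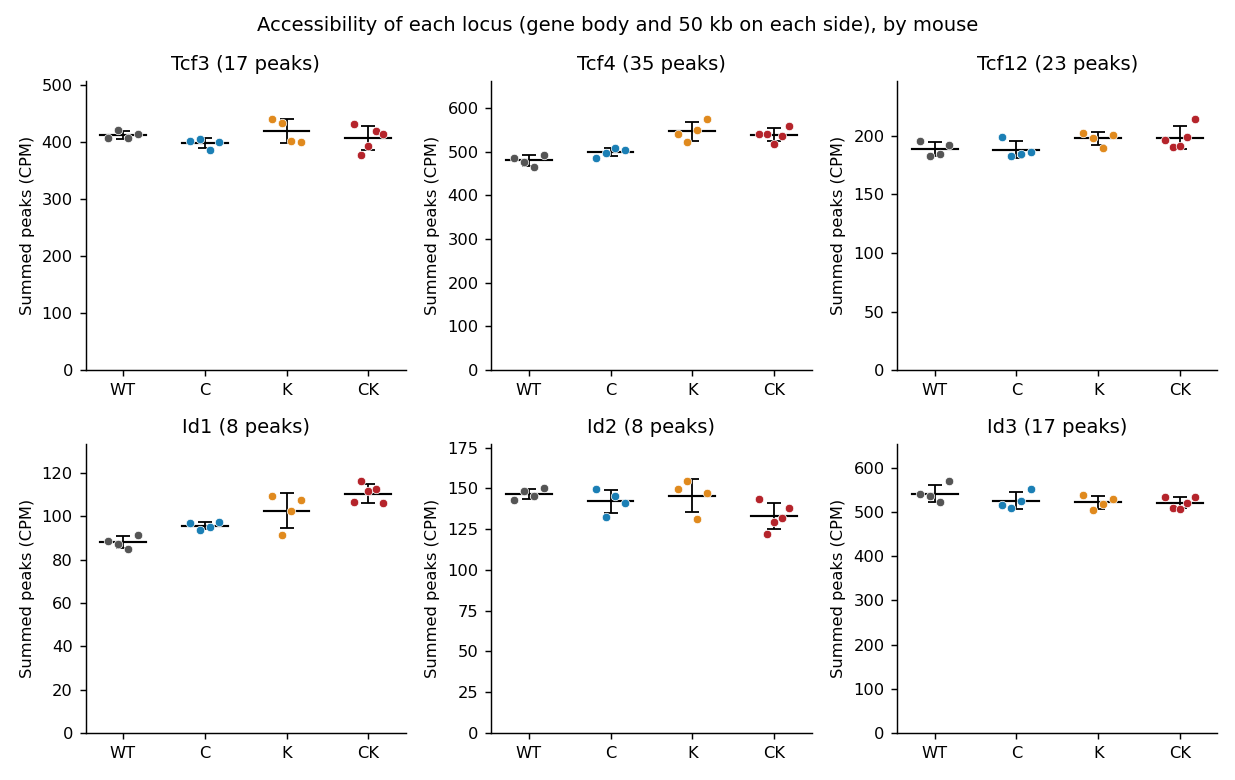
Summed accessibility (CPM) of the peaks in the window of each of the 6 genes, with 1 dot per mouse in the 4 genotypes and a bar at the mean ± SD. At Id1 the 5 CK mice (106 to 116 CPM) lie above the 4 WT mice (84.8 to 91.6), whereas the genotypes overlap at Tcf3 and Tcf12.

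Tcf4, which encodes E2-2, had the longest gene (346 kb, chr18:69343356-69689079, plus strand) and the most peaks, and the peaks that were higher in K and CK lay in its first part. The peak at 156.0 kb from the gene start (chr18:69498625-69500013) covered a noncoding first exon and annotated starts of 5 Tcf4 transcripts. It had 28.7, 28.3, 20.7 and 26.3 CPM in the WT mice and 30.4, 31.1, 34.6 and 27.7 in the C mice. It had 44.0, 38.6, 45.6 and 47.4 CPM in the K mice and 48.0, 48.0, 44.6, 46.4 and 44.7 in the CK mice. Every K and CK mouse was above every WT and C mouse, as the choice of the gene implies. The log2 fold change was 0.76 ± 0.08 in K and 0.84 ± 0.08 in CK. It was 0.68 and 0.72 within the mice with male-specific Y signal, and 0.73 and 0.97 within those without.

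The rest of Tcf4 was divided at 180 kb, a position set after the values were seen. All 17 peaks from the gene start to 180 kb had a positive log2 fold change in K and in CK, with medians of 0.54 (K), 0.65 (CK) and, for C, 0.11. Summed over this stretch, WT mice had 177 ± 11.8 CPM (SD, n = 4), C mice 192 ± 9.84 (SD, n = 4), K mice 252 ± 15.9 (SD, n = 4) and CK mice 252 ± 7.51 (SD, n = 5). The 18 peaks beyond 180 kb had medians of 0.09 for C, -0.07 for K and -0.04 for CK, and summed to 302 ± 9.41, 307 ± 12.7, 294 ± 6.70 and 287 ± 9.69 CPM in WT, C, K and CK.

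Further annotated start regions of Tcf4 were also measured. The peak at the gene start (+2.8 kb), where the longest transcripts begin, had 66.5, 66.7, 65.9 and 65.0 CPM in WT and 74.3, 70.8, 69.3, 78.3 and 72.7 in CK, a log2 fold change of 0.15 ± 0.04. The peak at +249.1 kb, where a group of shorter transcripts begins, had 75.8, 75.7, 77.8 and 81.1 CPM in WT and 79.4, 82.9, 68.8, 71.6 and 80.3 in CK, a log2 fold change of -0.02 ± 0.05. Taken as a ratio within each library, the 156.0 kb peak had 0.34 ± 0.05 of the level of the 249.1 kb peak in WT mice, 0.39 ± 0.05 in C mice, 0.56 ± 0.04 in K mice and 0.61 ± 0.04 in CK mice, and the highest WT mouse (0.38) was below the lowest K mouse (0.52). The numerator is the peak for which the gene was chosen, so the ratio is a description only.

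Of the intronic peaks in the first stretch, the one at +30.4 kb had the highest fold change among the named peaks. It had 6.92, 5.69, 5.20 and 6.92 CPM in the WT mice and 7.22, 7.22, 9.20 and 5.73 in the C mice. It had 13.1, 10.99, 10.8 and 13.4 CPM in the K mice and 12.997, 11.6, 10.98, 12.5 and 12.7 in the CK mice. K and CK lay above WT and C without overlap, with log2 fold changes of 0.97 ± 0.13 in K and 0.98 ± 0.12 in CK. The peaks at +129.5, +133.0 and +161.0 kb had log2 fold changes of 0.67, 0.47 and 0.81 in K and of 0.58, 0.50 and 0.81 in CK. The most open peak away from a Tcf4 start, at +320.3 kb, had 87.8 ± 3.22 CPM in WT (SD, n = 4) and 79.3 ± 3.18 in CK (SD, n = 5), a log2 fold change of -0.15 ± 0.04.

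The comparison of C with WT did not enter the choice of Tcf4 and was tested. None of the 35 peaks was called by edgeR or DESeq2, with 4 at an unadjusted p under 0.05 (11.4%, against 8.90% of all peaks). The lowest adjusted p, 0.271, was that of the 156.0 kb peak, with a log2 fold change of 0.26 ± 0.08. Its C mice (27.7 to 34.6 CPM) overlapped the WT mice (20.7 to 28.7). The locus sum had a log2 fold change of 0.06 ± 0.03 in C (adjusted p = 0.582). Tcf4 is abundant in plasmacytoid dendritic cells. The promoters of 4 genes of that cell type summed to 53.5 to 58.0 CPM in WT, 52.3 to 62.9 in K and 50.9 to 58.1 in CK, which overlap, and 1 of the 4, Siglech, had no promoter peak.

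**Figure D2:**
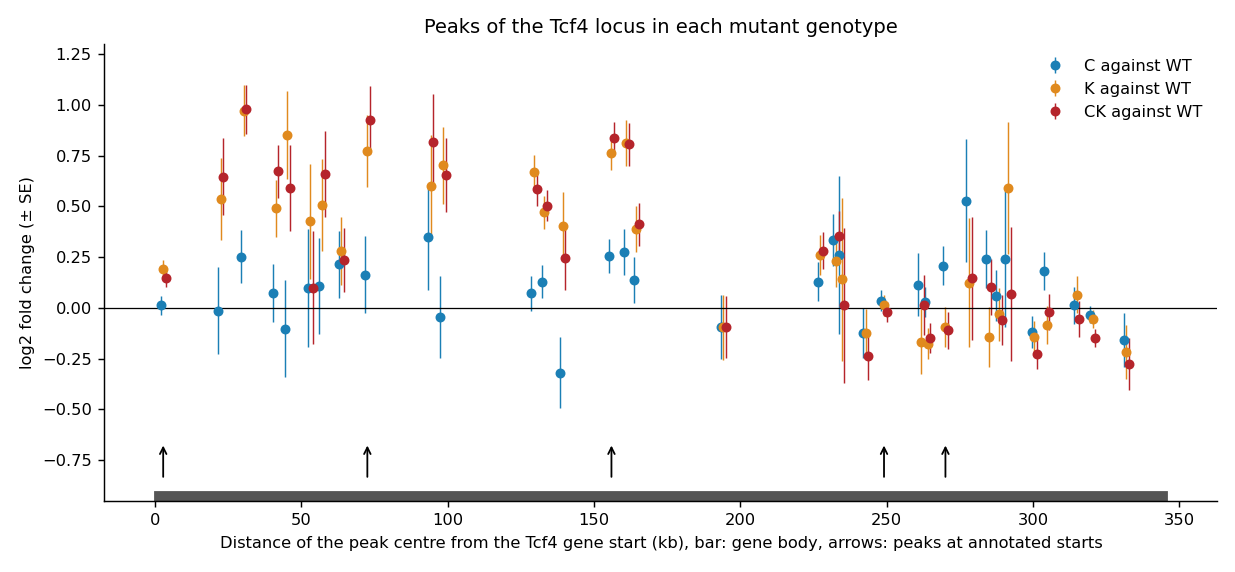
Log2 fold change (± SE) of each of the 35 peaks of the Tcf4 window in C, K and CK against WT, by the distance of the peak centre from the gene start in kb. The K and CK values are all above 0 up to 180 kb, with medians of 0.54 and 0.65, and scatter around 0 beyond it. These values are a description, since they bear on the choice of the gene.

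Id1 encodes an inhibitor of E proteins that signals of the BMP family induce in many cell types. It was the locus outside Tcf4 that was called higher in CK and, less stably, in K. Its window on chromosome 2 (gene at chr2:152736251-152737410, plus strand) summed to 88.6, 87.4, 84.8 and 91.6 CPM in WT and 97.2, 93.6, 95.1 and 97.4 in C. It summed to 109, 91.5, 102 and 108 CPM in K and 107, 116, 112, 113 and 106 in CK. All C and CK mice were above all WT mice, and 1 K mouse (91.5) lay within the WT range. The log2 fold change was 0.33 ± 0.04 in CK (adjusted p = 1.65e-05), 0.22 ± 0.05 in K (adjusted p = 0.00425) and 0.12 ± 0.05 in C (adjusted p = 0.309), and CK was also higher than C (0.21 ± 0.04, adjusted p = 0.00414). CK vs K gave 0.11 ± 0.04 (adjusted p = 0.471).

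Within the mice with male-specific Y signal the Id1 log2 fold change in CK was 0.31 (adjusted p = 0.00234), and within those without it was 0.34 (adjusted p = 0.00207). In K it was 0.27 (adjusted p = 0.00634) and 0.07 (adjusted p = 0.541), the latter with 1 K mouse. The call in K was lost without WT replicate 2, WT replicate 3, K replicate 1 or K replicate 4 (log2 fold changes without 1 mouse of 0.19 to 0.27, adjusted p up to 0.0269). It was also lost with windows of 10 kb or 100 kb and with only the peaks nearest to an Id1 TSS. The same held without peaks within 2500 bp of a coding TSS, with loess offsets and with only the groups compared. The call in CK held without any 1 mouse and was lost with a window of 10 kb (0.15, adjusted p = 0.0148).

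The called peaks of the Id1 window lay away from its promoter. The promoter peak (-0.4 kb) had 29.3, 31.9, 27.7 and 33.1 CPM in WT and 34.7, 34.4, 32.7, 35.2 and 35.7 in CK, a log2 fold change of 0.18 ± 0.06 (adjusted p = 0.0333). The peak at +20.4 kb (chr2:152755958-152757339), which covers coding exon sequence of Cox4i2, a subunit of cytochrome c oxidase, and lies 864 bp from a Cox4i2 TSS, had 23.4, 17.4, 18.7 and 20.8 CPM in WT and 23.03, 20.8, 26.3 and 24.6 in C. It had 28.3, 20.8, 28.3 and 29.1 in K and 28.8, 36.0, 34.8, 31.0 and 28.3 in CK. All CK mice were above all WT and C mice. CK vs WT was 0.67 ± 0.10 on the log2 scale, a fold of 1.59 (adjusted p = 9.07e-05), and this call held in all 30 alternatives in which this peak was refitted. It was 0.54 (adjusted p = 0.00902) in the mice with male-specific Y signal and 0.75 (adjusted p = 0.00134) in those without. The K value was 0.41 ± 0.11 (adjusted p = 0.0212 in edgeR and 0.00733 in DESeq2) and the C value 0.24 ± 0.11 (adjusted p = 0.502).

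A further 2 peaks of the Id1 window were called in CK. The intergenic peak at -12.2 kb (chr2:152723754-152724404), whose window held 5 E-boxes, was small, with 2.02, 2.25, 1.73 and 1.83 CPM in the WT mice and 2.50, 2.39, 2.17 and 2.55 in the C mice. The K mice had 3.08, 2.21, 2.83 and 2.68 CPM and the CK mice 3.50, 4.09, 3.55, 3.84 and 2.54. The CK mice were all above the WT mice, with a log2 fold change of 0.84 ± 0.15 (adjusted p = 4.72e-04). The values were 0.77 (adjusted p = 0.0379) in mice with male-specific Y signal and 0.94 (adjusted p = 0.0275) in those without, neither under 0.01. The intergenic peak at +30.9 kb (11031 bp from Cox4i2) had 16.97, 17.9, 18.8 and 18.2 CPM in WT and 20.6, 21.9, 21.4, 22.7 and 21.2 in CK, again without overlap. Its log2 fold change was 0.26 ± 0.07 (adjusted p = 0.00904), and the adjusted p rose above 0.01 (up to 0.0302) without any of 15 of the 17 mice. It was 0.30 (adjusted p = 0.13) and 0.22 (adjusted p = 0.188) in the mice with and without male-specific Y signal. The remaining 5 peaks of the window were not called.

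Id2, the inhibitor known for its role in innate lymphoid cells and as an antagonist of E2A in B cells, had peaks that lost accessibility in CK on its downstream side, inside the neighbouring gene Kidins220. The peak at +50.3 kb (chr12:25046187-25047542) covers a coding exon of Kidins220, which encodes a scaffold protein of receptor signalling. It had 10.8, 11.3, 14.3 and 16.1 CPM in the WT mice and 13.6, 9.07, 13.5 and 13.9 in the C mice. The K mice had 10.5, 10.3, 7.07 and 11.8 CPM and the CK mice 7.14, 5.28, 6.77, 7.52 and 8.01. All CK mice were below all WT and C mice. CK vs WT was -0.92 ± 0.15 on the log2 scale (a fold of 0.528, adjusted p = 2.27e-04) and CK vs C -0.85 ± 0.15 (adjusted p = 0.00185). K vs WT was -0.41 ± 0.16 (adjusted p = 0.123).

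The peak at +42.3 kb (chr12:25054323-25055298), in an intron of Kidins220 and 331 bp from a TSS of that gene, had 6.81, 6.32, 7.59 and 7.53 CPM in the WT mice and 7.65, 3.79, 8.49 and 7.86 in the C mice. The K mice had 4.99, 4.47, 3.30 and 5.26 CPM and the CK mice 5.32, 2.37, 3.08, 2.69 and 2.59. K and CK were below WT without overlap, and 1 C mouse (3.79) lay among the K and CK mice. CK vs WT was -1.13 ± 0.21 on the log2 scale (a fold of 0.457, adjusted p = 7.21e-04), CK vs C -1.10 ± 0.21 (adjusted p = 0.0031) and K vs WT -0.65 ± 0.21 (adjusted p = 0.0753). Among mice with male-specific Y signal, the CK values of the +50.3 and +42.3 kb peaks were -0.61 (adjusted p = 0.0912) and -0.72 (adjusted p = 0.169), and among those without they were -1.18 (adjusted p = 7.59e-04) and -1.48 (adjusted p = 2.32e-04). Both calls held without any 1 mouse.

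The promoter peak of Id2 (+1.1 kb) had 68.2, 72.4, 68.9 and 75.6 CPM in WT and 68.2, 63.9, 65.6, 66.1 and 69.4 in CK, which overlap (log2 fold change -0.10 ± 0.04, adjusted p = 0.138). The most open distal peak, 4.5 kb downstream, had -0.01 ± 0.08 (adjusted p = 0.962). The level of the +50.3 kb peak relative to the promoter peak in the same library was 0.18 ± 0.03 in WT and 0.10 ± 0.01 in CK. The sum over the window had a log2 fold change of -0.14 ± 0.05 for CK (adjusted p = 0.0314), -0.05 ± 0.05 for C (adjusted p = 0.811) and -0.01 ± 0.05 for K (adjusted p = 0.913). The +50.3 kb peak is the last inside the window, and the next peak beyond it, at 53.9 kb, had a log2 fold change of -0.57 ± 0.23.

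Id3, the inhibitor whose human counterpart is often mutated in Burkitt lymphoma, was the most open of the 6 loci per kb of peak, and edgeR called 1 of its 17 peaks in CK vs WT. DESeq2 called 2, the other being at -43.1 kb, named after its values were seen (log2 fold change -0.38, adjusted p = 0.0135 in edgeR and 0.00509 in DESeq2). The intergenic peak at -33.2 kb (chr4:136109306-136111258) had 18.1, 18.2, 17.5 and 20.7 CPM in the WT mice and 16.7, 15.9, 14.96 and 18.3 in the C mice. The K mice had 14.3, 11.7, 13.4 and 16.1 CPM and the CK mice 12.997, 13.2, 13.2, 13.8 and 16.5. K and CK were below WT without overlap. The log2 fold change was -0.42 ± 0.09 in CK (adjusted p = 0.00299) and -0.42 ± 0.10 in K (adjusted p = 0.0123), a K value that missed the threshold in edgeR and passed it in DESeq2 (adjusted p = 0.0017). Without WT replicate 4, the CK value was -0.37 and its adjusted p 0.0195. It was -0.45 (adjusted p = 0.0316) in the mice with male-specific Y signal and -0.41 (adjusted p = 0.074) in those without.

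The promoter peak of Id3 (+0.8 kb) had 97.5, 95.8, 89.7 and 90.1 CPM in WT and 98.6, 97.1, 92.6, 92.4 and 91.0 in CK, a log2 fold change of 0.02 ± 0.04 (adjusted p = 0.834). The E2f2 promoter in the same window (+37.3 kb) had -0.05 ± 0.04 (adjusted p = 0.485). Against its own promoter, the -33.2 kb peak had a level of 0.20 ± 0.02 in WT and 0.15 ± 0.02 in CK. The locus sum did not pass the test in any genotype, with log2 fold changes of -0.04 (C), -0.05 (K) and -0.06 (CK) (adjusted p = 0.716, 0.305 and 0.192 from edgeR). The peak just outside the window on the upstream side, at -54.0 kb, had 66.2 CPM and a log2 fold change of -0.30 ± 0.05 in CK.

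Tcf12, which encodes HEB, had 1 called peak in CK vs WT, at a start of its shorter transcripts. That peak, +215.6 kb from the gene start (chr9:71895765-71896728, the gene running on the minus strand from 72111871 to 71842688), covers a coding exon and annotated starts of 4 Tcf12 transcripts, a short form of HEB among the proteins this gene is known to encode. It had 22.2, 21.3, 21.7 and 23.8 CPM in the WT mice and 19.9, 18.9, 19.6 and 19.96 in the C mice. The K mice had 17.03, 19.1, 18.7 and 20.1 CPM and the CK mice 17.7, 16.5, 17.3, 17.3 and 19.1. All mutant mice were below all WT mice. The log2 fold change was -0.34 ± 0.07 in CK (adjusted p = 9.15e-04), -0.25 ± 0.07 in K (adjusted p = 0.0339) and -0.18 ± 0.07 in C (adjusted p = 0.374).

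The Tcf12 call was lost when libraries were centred within GC bins (-0.22, adjusted p = 0.0161). It was -0.33 (adjusted p = 0.0834) and -0.36 (adjusted p = 0.0431) in the mice with and without male-specific Y signal. The peak at the gene start (+0.3 kb) had 34.3, 30.7, 28.3 and 29.3 CPM in WT and 37.4, 30.7, 33.9, 32.8 and 33.3 in CK (0.13 ± 0.07, adjusted p = 0.19). The ratio of the +215.6 kb peak to the gene-start peak was 0.73 ± 0.07 for WT mice, 0.69 ± 0.04 for C mice, 0.56 ± 0.08 for K mice and 0.52 ± 0.04 for CK mice, and the highest CK mouse (0.57) was below the lowest WT mouse (0.65). An intergenic peak 21.4 kb upstream of the gene was higher in CK than in C (29.3 ± 1.99 CPM against 22.9 ± 1.06, with 24.4 ± 2.63 in WT mice and 29.4 ± 3.27 in K mice), with a log2 fold change of 0.35 ± 0.08 (adjusted p = 0.00727). Against WT it was 0.26 ± 0.08 (adjusted p = 0.0192). The locus sum of Tcf12 had log2 fold changes of -0.01 (C), 0.07 (K) and 0.07 (CK), none of them called.

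Tcf3, which encodes E2A, had no called peak among 17 in any pairwise comparison with edgeR under TMM scaling or with DESeq2. At an unadjusted p under 0.05 there were 2 in CK (11.8%, against 28.9% of all peaks) and 0 in C or K (against 8.90% and 20.6%). The promoter peak (-0.2 kb) had 68.2, 67.0, 63.7 and 68.2 CPM in the WT mice and 64.7, 65.4, 64.3 and 62.4 in the C mice. The K mice had 71.1, 73.1, 66.8 and 65.1 CPM and the CK mice 70.1, 66.0, 63.8, 70.4 and 65.8. These overlap, and CK vs WT was 0.01 ± 0.04 on the log2 scale (adjusted p = 0.912). The lowest adjusted p was that of a peak in the first part of the gene, at +3.5 kb, near starts of 3 further transcripts. It had 43.5, 50.1, 49.96 and 59.6 CPM in WT and 42.9, 40.6, 39.7, 45.2 and 47.0 in CK (-0.24 ± 0.07, adjusted p = 0.0223), and with libraries centred within GC bins it was called (-0.31, adjusted p = 0.00486). The locus sum had log2 fold changes of -0.05 ± 0.04 (C), 0.02 ± 0.04 (K) and -0.02 ± 0.04 (CK), none called.

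**Figure D3:**
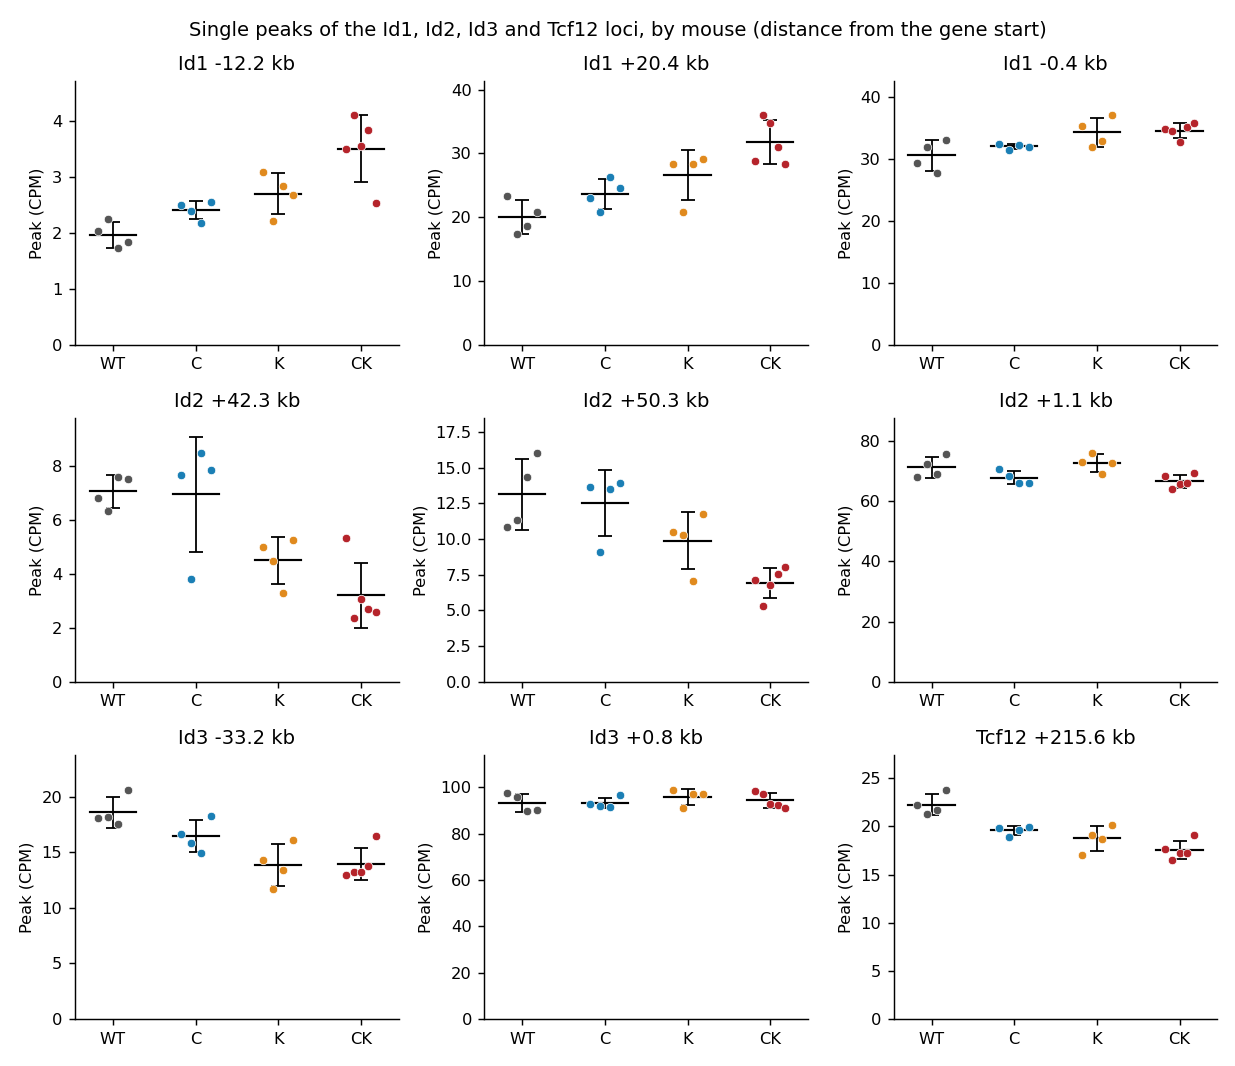
CPM of single peaks of the Id1, Id2, Id3 and Tcf12 windows, with 1 dot per mouse and a bar at the mean ± SD. At Id2 +50.3 kb the 5 CK mice (5.28 to 8.01) lie below the 4 WT mice (10.8 to 16.1), and at Id1 +20.4 kb the CK mice (28.3 to 36.0) lie above the WT mice (17.4 to 23.4).

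**Figure D4:**
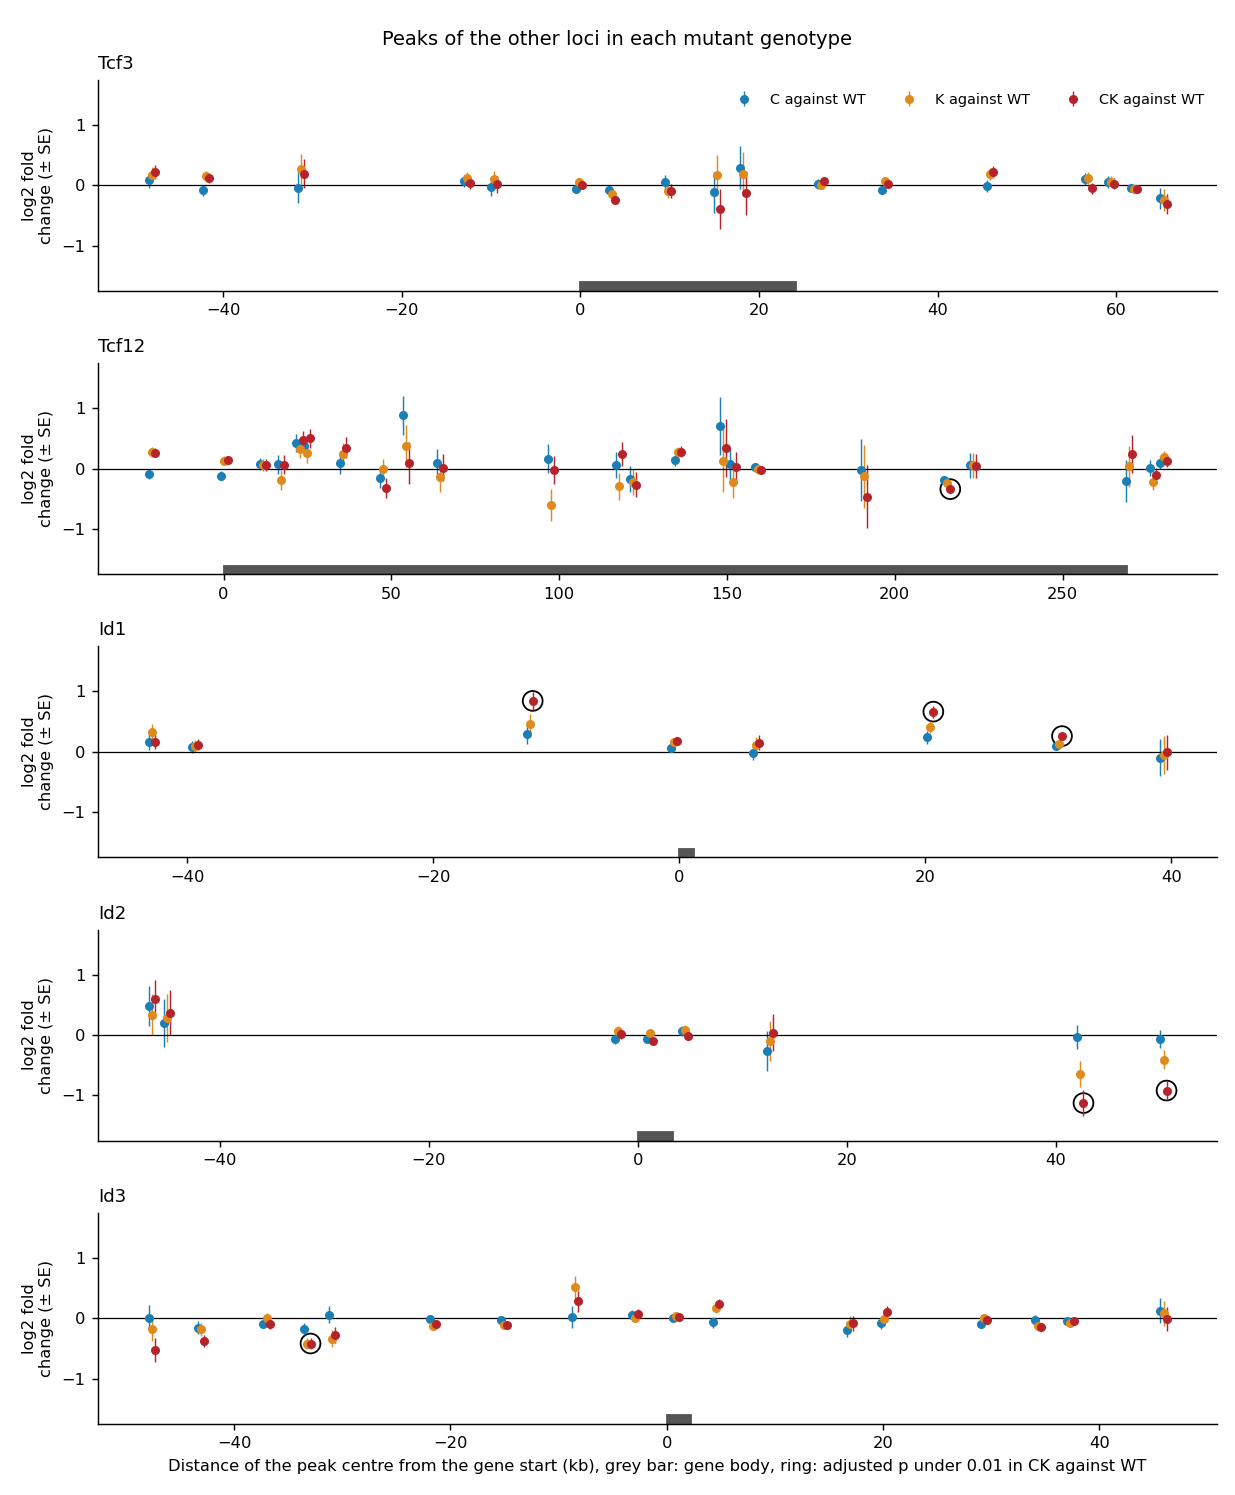
Log2 fold change (± SE) of each peak of the Tcf3, Tcf12, Id1, Id2 and Id3 windows in C, K and CK against WT, by distance of the peak centre from the gene start in kb. Rings mark the 7 peaks called in CK, of which 3 are higher (all Id1) and 4 lower (2 at Id2, 1 at Id3 and 1 at Tcf12).

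The windows were set by distance. The outermost peak inside each side of the 6 windows had a log2 fold change in CK between -0.92 (Id2, downstream) and 0.60 (Id2, upstream). The nearest peak outside, at varied distances from the edge, had values from -0.57 (Id2, downstream) to 0.63 (Tcf12, downstream). This Tcf12 peak, 340.2 kb from the gene start, had 0.63 ± 0.13. The nearest peak downstream of the Tcf4 window, 452.8 kb from the gene start, had 0.63 ± 0.21.

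Other genes of the E-protein and Id pathway were measured as loci in the same way. Of 38 listed genes 37 had peaks, and edgeR called 11 of them in CK vs WT (29.7%, against 11.7% of all loci), 8 higher and 3 lower. DESeq2 also called 11, against 15.1% of all loci. In C and in K, edgeR called 0 of 37, against 0.454% and 2.65% of all loci. There were 7 and 12 at an unadjusted p under 0.05, against 9.99% and 26.8% of all loci. DESeq2 called 0 and 2, against 0.687% and 4.91%. The median log2 fold change over the list in CK was -0.02, beside 0.03 over all loci. Vpreb1 and Igll1 are neighbours that share peaks, so their calls, counted here as 2 genes, are not independent.

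Of 9 genes of signals known to induce Id genes, 5 were called in CK. The BMP signal transducers Smad1 (113 ± 7.03 CPM over WT mice and 136 ± 8.09 over CK mice) and Smad5 (36.9 ± 1.86 and 44.9 ± 4.61) rose by 0.27 ± 0.04 and 0.28 ± 0.06 on the log2 scale, with adjusted p of 1.48e-04 and 0.00237 from edgeR. The BMP receptor gene Bmpr2 also rose. The TGF-beta receptor genes fell, Tgfbr2 by 0.16 on the log2 scale (430 ± 12.8 CPM in WT and 384 ± 4.93 in CK) and Tgfbr1 by 0.18 (259 ± 13.03 and 228 ± 10.95). Egr1, Egr2, Egr3 and Bmpr1a were not called.

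Of 8 bHLH and HLH relatives, 2 rose in CK. They were Id4, the Id gene not among the members (0.79 ± 0.17 on the log2 scale, from 1.42 ± 0.16 CPM in WT to 2.47 ± 0.22 in CK in 1 peak), and Tal1, an E-protein partner of blood stem and erythroid cells (0.49 ± 0.08, from 19.3 ± 1.98 to 27.1 ± 2.19). Of 8 measured cofactors, Lmo4, a LIM-only protein of bHLH complexes, rose (0.18 ± 0.04). Of 12 known E-protein targets in B cells, Vpreb1 and Igll1, the surrogate light chain genes, rose and Cd79a, a signalling chain of the B cell receptor, fell by 0.11 on the log2 scale. The other 9 targets, Pax5 among them, were not called. The median over the targets was -0.07.

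**Figure D5:**
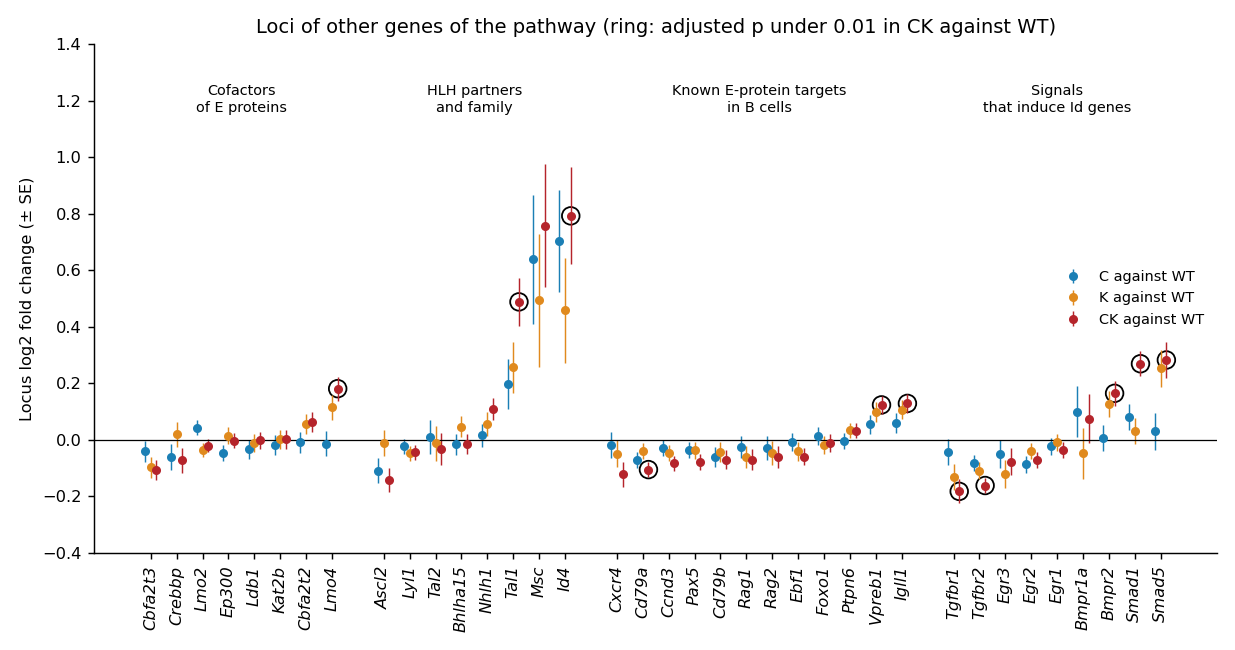
Locus log2 fold change (± SE) of the other genes of the pathway in C, K and CK against WT, with rings for an adjusted p under 0.01 in CK. Rings mark 11 of 37 loci, with Id4 (0.79) and Tal1 (0.49) the highest of them and Tgfbr1 (-0.18) the lowest.

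For each member, the loci on other chromosomes whose levels followed it most closely over the 17 libraries were listed as a description. By Pearson's r of log2 levels they were Tspan9 (0.91) and Hus1b (0.89) for Tcf4, Kdm3b (0.94) and Ppox (0.94) for Tcf3, Tulp3 (0.89) and Rhno1 (0.88) for Tcf12, Rnf32 (0.93) and Igsf3 (0.92) for Id1, Bin2 (0.82) and Golph3l (0.82) for Id2, and Dnah14 (0.89) and Myom1 (0.89) for Id3. The libraries share genotype and scaling, so these values follow group differences too. Between members, r was 0.82 for Tcf4 with Id1, both higher in K and CK, and -0.57 for Id1 with Id2.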

How the data were processed

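Accessible chromatin of GC B cells from 17 mice (4 WT, 4 C, 4 K, 5 CK, 1 library per mouse) was measured by ATAC-seq. Per the file header and the study's methods, the authors aligned reads to mm10 with the nf-core ATAC-seq pipeline, removed duplicates, called consensus peaks and deposited raw counts of fragments per peak from featureCounts 2.0.1, not normalized. A fragment was counted for each peak that held at least 0.2 of it. The 0 columns of other samples left nothing out.

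Peaks were annotated with GENCODE M21 on GRCm38, and sequences were read from that genome. The filter, a minimum of 10 fragments over all libraries, removed 0 peaks. Counts were scaled by TMM and fitted in edgeR 4.0.16 (R 4.3.3) with 1 coefficient per genotype, all libraries together, no covariates, with tests by quasi-likelihood (glmQLFTest) and p-values adjusted by Benjamini-Hochberg over all 65483 peaks or 18045 loci. Calls had an adjusted p under 0.01. Locus values summed the peaks of a window and give large windows and shared peaks more weight. P-values measure the spread between mice. The SE of a log2 fold change is the estimate divided by the root of its F value. Ratios of peaks within a library are given as values, without the permutation test set for them. The scripts were tested on simulated data. DESeq2 1.42.0 served as an alternative. GC content and fragment sharing between neighbouring peaks can affect the measurements.

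Named peaks were those at a TSS of the member (within 1000 bp, at most 4), called peaks (at most 5 per member), the most open peak over 2500 bp from the member's TSSs, and the lowest p in CK vs WT where none was called. The 2 most similar loci per member were named, and 8 pathway genes by lowest p. Of the pathway list, 1 gene is not reported here. Bmpr2, Vpreb1 and Igll1 were named after their values were seen. Members, lists and the split of Tcf4 were chosen with earlier results of these data known. The replicate numbers of WT and C mice paired (correlations of same-numbered deviations of 0.14 to 0.25 in all 4 pairs). In the other pairs of genotypes 1 to 3 of 4 pairs passed 0.1. For K and CK it was 3, against a median correlation of 0.002 between mice of different numbers. These values do not settle whether the numbers pair the mice outside WT and C. With the number as a replicate block, 0 peaks and 0 loci were called in C vs WT, as without it.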

Additional observations from a re-analysis of the deposited data

Results flagged for a closer look

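In groups of 4 or 5 mice, 1 mouse stood apart from the others of its genotype by Dixon's test in 9 of 136 groups tested, and chance marks about 1 in 20. The groups were those of the 28 named peaks and the 6 locus sums, and all 9 were of peaks. At Tcf4 these were the +161.0 kb peak in K replicate 4 (37.69 CPM, the others 29.28 to 30.04) and in CK replicate 5 (39.01, the others 28.4 to 31.4), and the +249.1 kb peak in C replicate 4 (86.23, the others 76.7 to 77.8). At Id1 they were the +20.4 kb peak in K replicate 2 (20.78, the others 28.3 to 29.1) and the +30.9 kb peak in K replicate 1 (21.97, the others up to 19.2). At Id2 they were the +50.3 kb peak in C replicate 2 (9.068, the others 13.5 to 13.9) and the +42.3 kb peak in CK replicate 1 (5.317, the others up to 3.08). At Id3 they were the -33.2 kb peak in CK replicate 5 (16.48, the others up to 13.8) and the +37.3 kb peak in WT replicate 4 (122.5, the others at 110.1 to 110.4). Both Id2 peaks were also lowest of the C mice in C replicate 2, which had 3.79 CPM at +42.3 kb.

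Fragments on the male-specific part of chromosome Y, which entered the alternative fits but not the main comparisons of members, were present in 9 of the 17 libraries. They were at 69.7 to 77.7 CPM there, against at most 0.0558 in the other 8. They were in 2 of 4 WT, 2 of 4 C, 3 of 4 K and 2 of 5 CK libraries.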

How the results depend on the processing

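Over 102 values recomputed under 35 settings, 2967 of 3109 recomputed values kept their direction and side of the threshold or stayed within the spread. Among the peaks, an adjusted p under 0.05 called 15 in K, 32 in CK and 19 in CK vs C, against 5.38%, 15.4% and 6.68% of all peaks. Counts include Tcf4. A log2 fold change above log2(1.5) left 9 in CK and 5 in CK vs C, with edgeR (3.12% and 0.702% of all) and with DESeq2 (3.29% and 1.12%), and DESeq2 without this limit called 9 in K (3.29%). Windows of 10 kb, which hold fewer peaks, gave 8 peaks in CK (6.84%). Chromosome Y share as a covariate gave 9 in CK (2.74%) and 4 in CK vs C (0.515%). The male-specific Y signal as a covariate, also chosen after seeing the data, gave 5 in K (1.41%), 17 in CK (8.46%) and 12 in CK vs C (2.97%). Chosen after seeing the data, fits within the mice with male-specific Y signal gave 5 in CK (0.747%), 2 in CK vs C (0.293%) and 1 locus in CK (1.98%). Within those without it there were 7 in CK (1.61%), 2 in CK vs C (0.0794%) and 1 locus in CK (4.85%), while the 0 peaks and 0 loci in K (0.0473% and 0.0166%) rest on 1 K mouse, assumed to vary like the other groups. These fits have fewer mice. Loci called in K numbered 1 with windows of 10 kb or 100 kb, peaks nearest to the member's TSS, loess offsets or only the groups compared, and 0 without peaks within 2500 bp of a coding TSS. The backgrounds were 3.15%, 2.05%, 3.56%, 2.63%, 1.39% and 2.95% of all loci, in that order. The Id1 locus was not called in K in any of these settings. Loci called in CK numbered 1 with windows of 10 kb (12.2%) and 5 with GC bins (18.7%). Without 1 mouse, called peaks ranged from 5 to 6 in K, 12 to 16 in CK and 3 to 11 in CK vs C (3 without C replicate 4, 5 without C replicate 1, C replicate 2 or CK replicate 1, 6 without C replicate 3), and loci from 1 to 2 in K and 2 to 2 in CK. In C and in CK vs K they stayed at 0.

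The replicate block, with numbers that paired most clearly for WT and C mice, gave 9 peaks in K (8 higher, 1 lower), 19 in CK and 13 in CK vs C. The backgrounds were 3.28%, 10.1% and 3.93% of all peaks. Under it the Id1 +20.4 kb (adjusted p = 0.00871) and Id3 -33.2 kb (adjusted p = 0.00122) peaks were called in K, and the Tcf3 +3.5 kb peak in CK (-0.27, adjusted p = 0.00225). In no pair of genotypes did every library correlate best with its own number (6 of 8 for WT and C). The Tcf3 +34.1 kb peak, the Mbd3 promoter, turned in direction in CK with GC bins, from 0.02 to -0.18 (adjusted p = 0.00188). The cause was not tested. Depth limits the smallest peaks, of which 14 of 108 fell under 10 fragments in a library.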
